A study of Saccharomyces cerevisiae with 24 samples.

Results

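The regions described here are the stretches of the budding yeast genome that had gained the most DNA in the control strain 20 min into a synchronous S-phase. They were chosen by the copy number ratio of the sml1 table at 20 min: this ratio was averaged over 5 consecutive 1-kb bins centred on each bin, with at least 3 bins present on the same chromosome, and a bin was kept where the mean showed a gain of at least 0.55 over 1 copy. The rule kept 951 of 11292 bins with such a mean (8.42%). Members separated by no more than 2 bins were joined into runs, called zones, which gave 88 zones on all 16 chromosomes. Because the rule read the sml1 library at 20 min, the values of that library describe the choice and are no finding, and the members were judged on the other 21 tables.

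Both strains were of the W303 background and lacked SML1, whose product restrains ribonucleotide reductase and thus dNTP supply. The control, sml1, carried the deletion alone. The SSDDCS strain also over-expressed 6 limiting initiation factors (Cdc45, Dbf4, Dpb11, Sld2, Sld3 and Sld7) from galactose-driven promoters, with constructs integrated at the LEU2, HIS3 and TRP1 loci. Cells of both strains were arrested in G1 with alpha factor, were given galactose while arrested and were released into galactose medium, so that the control met the same sugar and the same arrest. Each strain had 1 G1 sample and 11 samples at 5, 10, 15, 20, 25, 30, 35, 40, 45, 50 and 60 min, with 1 library each. No difference between the strains therefore has a replicate check, no p-value is given, and intervals on medians cover only the spread between zones, which share their libraries.

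Replication starts at origins, short sequences that bind the origin recognition complex and are loaded with the helicase in G1. Firing needs S-phase kinases and a small pool of initiation factors, so that origins fire at different times, and forks leaving the first ones copy the DNA on both sides. A bin near an early origin thus passes from 1 to 2 copies early, either because it holds the origin or because a fork reaches it from nearby. Origins near centromeres are known to be early in budding yeast, and origins near chromosome ends are known to be late.

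The zones ranged from 1 bin (16 zones) to 55 bins, with a median of 7, and the 37 zones of 10 or more bins held 81.2% of the members. The longest, chrIV:417001-472000 (R64-2-1 coordinates, as for all positions), spanned ARS415, ARS1 (also called ARS416) and the centromere CEN4. Next came chrVI:163001-214000 with 51 bins around ARS606 and ARS607, chrX:408001-453000 with 43 bins around 3 origins and CEN10, chrXIII:255001-294000 with 39 bins around ARS1309, ARS1310 and CEN13, and chrV:144001-186000 with 38 bins around ARS510, ARS511 and CEN5. Members were unevenly spread over the genome. They made up 30.5% of the bins of chromosome VI, 28.0% of chromosome III and 22.1% of chromosome I, and 1.12% of chromosome XVI.

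An annotated origin lay within 2 kb of 68 of the 88 zones (77.3%, Wilson 95% interval 67.5% to 84.8%), and 18 zones had more than 1. Members lay a median of 3.82 kb from the nearest origin midpoint, against 10.8 kb for all bins, and 61.6% of them were within 5 kb of one, against 25.7% of all bins. Of the 951 members 371 (39.0%) were within 25 kb of a centromere, where 6.76% of all bins lie, and 76 (7.99%) were within 50 kb of a chromosome end, where 10.5% of all bins lie. A centromere was inside a zone on 7 of the 16 chromosomes, namely CEN1, CEN2, CEN3, CEN4, CEN5, CEN10 and CEN13. The start of a tRNA gene fell in 4.94% of members and in 2.28% of all bins. The median GC content was 38.0% in members and 37.9% in all bins.

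The sequences of 6 origins are given because they lie in zones named in this text, and because they show the element that starts replication. Capitals mark each exact match, on either strand, to the 11-base ARS consensus sequence, the binding core of the origin recognition complex. All are written 5′ to 3′ on the forward strand of the RefSeq R64 reference genome, and all lie between genes. ARS1 (chrIV:462567-462622) is beside TRP1, ARS209 (chrII:254998-255083) is next to the histone pair HHF1 and HHT1, and ARS1310 (chrXIII:286835-286951) is in the zone of CEN13. ARS606 is at chrVI:167547-167801, ARS315 at chrIII:224816-225061 and ARS428, beside the histone pair HTB1 and HTA1, at chrIV:913790-914038.
ARS1: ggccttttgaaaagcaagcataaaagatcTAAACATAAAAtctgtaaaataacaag
ARS209: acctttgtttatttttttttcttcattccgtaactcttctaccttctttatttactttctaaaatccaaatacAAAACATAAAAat
ARS1310: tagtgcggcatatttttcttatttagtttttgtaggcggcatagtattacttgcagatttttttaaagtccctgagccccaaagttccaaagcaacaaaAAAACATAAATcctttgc
ARS606: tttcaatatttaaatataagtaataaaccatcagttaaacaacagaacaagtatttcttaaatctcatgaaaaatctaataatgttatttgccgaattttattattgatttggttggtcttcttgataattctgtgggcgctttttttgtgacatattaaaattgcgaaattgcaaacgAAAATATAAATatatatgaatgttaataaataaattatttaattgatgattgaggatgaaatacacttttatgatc
ARS315: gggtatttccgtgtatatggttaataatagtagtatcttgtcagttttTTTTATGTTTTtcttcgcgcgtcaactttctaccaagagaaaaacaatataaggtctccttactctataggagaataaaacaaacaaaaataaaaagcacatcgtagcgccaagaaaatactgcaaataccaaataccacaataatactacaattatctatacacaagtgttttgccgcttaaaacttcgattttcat
ARS428: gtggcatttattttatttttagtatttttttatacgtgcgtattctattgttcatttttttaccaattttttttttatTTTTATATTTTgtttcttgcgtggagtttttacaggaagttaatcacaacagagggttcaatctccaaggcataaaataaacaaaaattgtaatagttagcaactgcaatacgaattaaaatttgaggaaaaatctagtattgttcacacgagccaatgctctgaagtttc

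The match is on the reverse strand in ARS1, ARS209, ARS1310 and ARS606 and on the forward strand in ARS315 and ARS428. Of the 73 zone origins annotated at up to 300 bases, 30 held an exact match within their annotated span. No such count is given for the other origins, so this share has no comparison here. Both origins below also lie in zones, but no 11-base stretch within them matched exactly, so they carry no capitals. They are ARS305 (chrIII:39508-39595) and ARS607 (chrVI:199395-199505, which overlaps the annotated gene RUF22).
ARS305: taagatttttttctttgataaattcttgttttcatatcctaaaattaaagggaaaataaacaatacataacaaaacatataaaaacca
ARS607: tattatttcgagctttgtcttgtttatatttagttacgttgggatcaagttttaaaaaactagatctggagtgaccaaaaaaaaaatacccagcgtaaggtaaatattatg

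In 1-kb windows centred on origins, an exact consensus match on either strand was present at 43 of the 88 origins in zones (48.9%, Wilson interval 38.7% to 59.1%) and at 97 of the 264 origins elsewhere (36.7%, 31.2% to 42.7%). Among bins, 9.04% of members and 6.15% of all bins held one. The 7-base forkhead site GTAAACA, a core bound by the Fkh1 and Fkh2 proteins that are known to set the timing of many early origins, was searched on both strands in the same windows. It was present at 19 of the origins in zones (21.6%) and at 49 of the others (18.6%), and in 15.4% of members and 15.8% of all bins. For both motifs the intervals of the origins in zones and of the others overlapped (14.3% to 31.3% and 14.3% to 23.7% for the forkhead site).

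The members replicated early in libraries that had no part in the choice. In the control, 5 min after release, their median ratio was 1.012 against 1.010 for all bins, and at 10 min it was 1.022 against 1.021. Per zone the excess over the median of all bins was small at this stage, with a median of 0.70% at 5 min (95% order-statistic interval over zones 0.31% to 1.07%) and 0.69% at 10 min (0.03% to 1.27%). At 60 min it was much the same, at 0.83% (0.29% to 1.18%). With each bin divided by its own value at 60 min, members were at 99.6% of the all-bin median at both 5 and 10 min. After that division the members thus had no lead at these times. At 15 min the member median was 1.202 against 1.138, at 25 min 1.911 against 1.605 and at 30 min 2.009 against 1.789. Every zone was above the median of all bins in the control at 25, 30 and 35 min, and 84 of the 88 were at 15 min. From 30 min on, the member median stayed between 2.009 and 2.029, while all bins came closer, reaching 1.995 at 60 min.

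**Figure D1:**
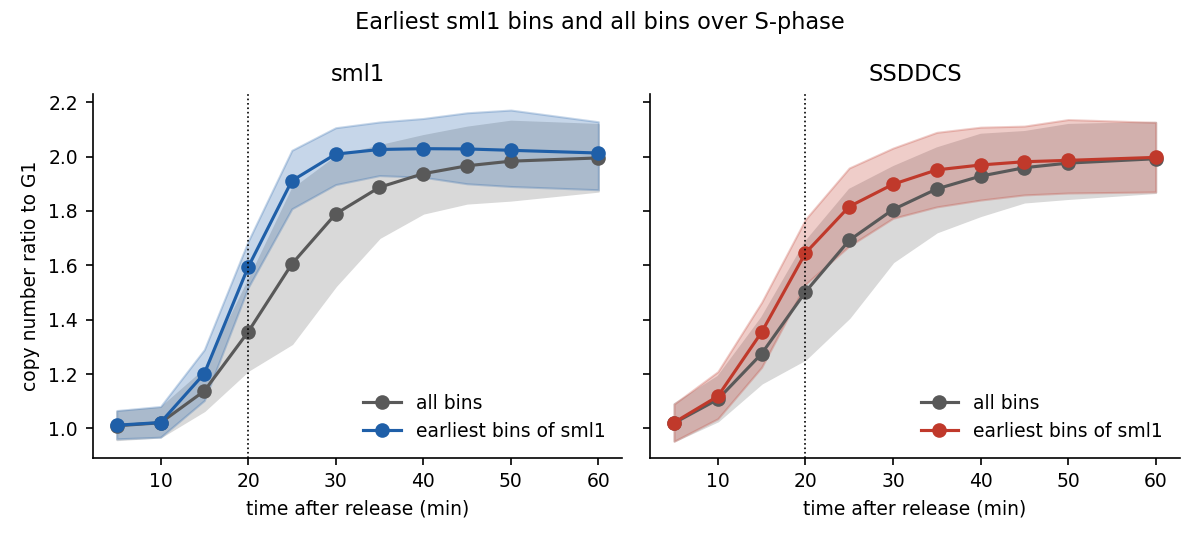
Copy number ratio to G1 (y axis) against minutes after release (x axis) in sml1 (left) and SSDDCS (right), for the 951 earliest bins of sml1 (coloured) and all bins (grey). Points are medians over bins, bands run from the 10th to the 90th percentile over bins, and the dotted line marks 20 min, the choosing time in sml1; members and all bins are far apart at 25 min in sml1 (1.911 and 1.605) and nearer in SSDDCS (1.816 and 1.692).

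In the SSDDCS strain the same bins were ahead of the control early in S-phase and behind it later. The member median was 1.118 at 10 min and 1.354 at 15 min, when the control was at 1.022 and 1.202. At 25 min it was 1.816 against 1.911 in the control, and at 30 min 1.898 against 2.009. The order of the strains at the members thus turned between 15 and 25 min. Per zone, the median difference, SSDDCS minus sml1, was 0.160 at 15 min (95% order-statistic interval over zones 0.149 to 0.171, with 87 of 88 zones higher) and -0.071 at 25 min (-0.087 to -0.044, with 72 of 88 zones lower). At 30 min it was -0.098, with 80 of 88 zones lower. Over all bins the median difference was 0.140 at 15 min, 0.058 at 25 min and 0.019 at 30 min, so that the genome at large was still higher in SSDDCS when the earliest bins of the control were lower.

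Each table was scaled by the authors to a bulk DNA content from flow cytometry, and this scale sets the level of a library as a whole. The factor was 1.139 for sml1 and 1.280 for SSDDCS at 15 min, and 1.599 and 1.662 at 25 min. The excess of the zones over the median of all bins in the same library does not depend on it. In the control the median zone lay 6.33% above that median at 15 min (interval 5.37% to 7.38%), 17.8% at 25 min (16.3% to 18.8%) and, later, 11.8% at 30 min. In the SSDDCS strain it lay 7.78% above at 15 min (6.44% to 8.64%), 10.5% at 20 min, 7.21% at 25 min (6.34% to 8.28%) and 5.36% at 30 min. The zones thus kept a lead in both strains. From 25 to 50 min the lead was smaller in SSDDCS, with intervals over zones that did not overlap.

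All sml1 tables were divided by the same G1 library as the choosing table, so that noise in that library would raise the members in all of them, whereas the SSDDCS tables share no library with it. With each bin divided by its own value at 60 min, which removes the G1 library, members were at 118% of the all-bin median in sml1 at 25 min and at 107% in SSDDCS. Choosing as many bins on the SSDDCS library at 20 min in place of the control, an alternative added after seeing the data, gave 187 zones. These lay 11.6% above the all-bin median in sml1 at 25 min (10.1% to 13.9%) and 8.83% above it in SSDDCS (8.19% to 9.37%), so the excess at 25 min was larger in the control for zones chosen on either strain. This was not so at 15 min, when the bins chosen on SSDDCS had medians of 1.185 in sml1 and 1.390 in SSDDCS, against 1.138 and 1.275 for all bins.

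**Figure D2:**
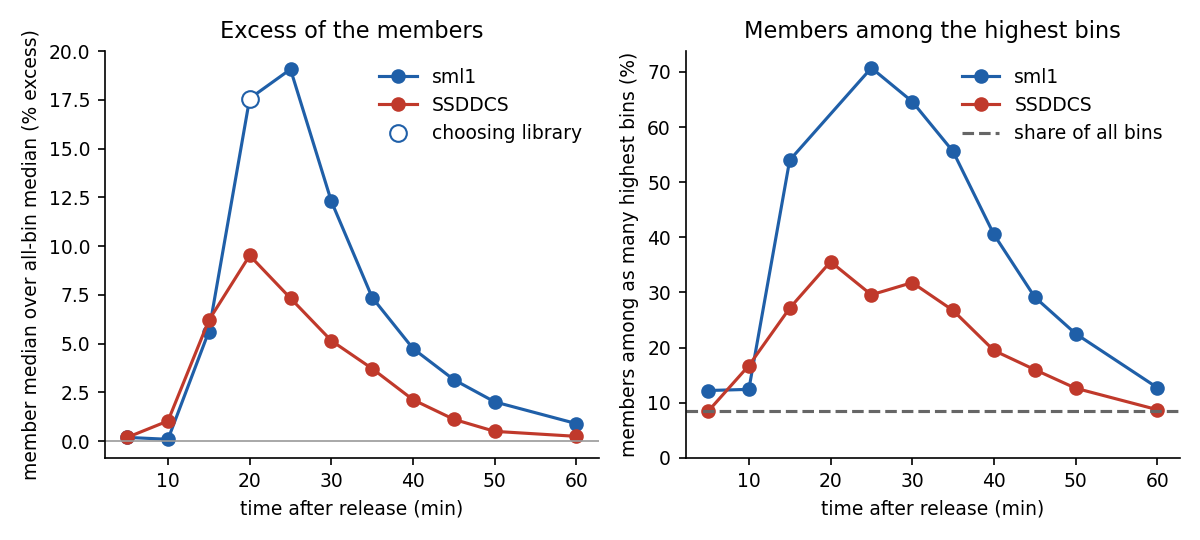
Left, the percent by which the member median exceeds the median of all bins in each library (y axis) against minutes after release (x axis); the open circle is the choosing library. Right, the percent of 950 ranked members that are among the 950 highest 5-bin means of each library, with the choosing library left out and a dashed line at the share of all bins, 8.42%; at 25 min the share was 70.7% in sml1 and 29.6% in SSDDCS.

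The members also ranked lower in SSDDCS. Of 11279 bins with a 5-bin mean in all 22 tables, 950 were members, so that 8.42% of bins could be among the 950 highest of a library. In the control the highest bins included 513 members (54.0%) at 15 min and 672 (70.7%) at 25 min. At 30 min they included 614 (64.6%). In SSDDCS 338 members (35.6%, Wilson interval 32.6% to 38.7%) were among the highest at 20 min and 281 (29.6%) at 25 min. This interval counts bins as independent. Members lie in runs and their 5-bin means overlap, so it is too narrow. The share was 12.2% at 5 min in the control and 8.42% at 5 min in SSDDCS, equal in SSDDCS to that of all bins. At 10 min the share was 12.4% in the control and 16.7% in SSDDCS, and at 60 min 12.7% and 8.74%. The members' median percentile among all bins was 95 in sml1 at 25 min and 82.4 in SSDDCS at that time, and every zone was still above the median of all bins in SSDDCS at 20 min.

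The highest bins of SSDDCS at 20 min were spread over more and shorter runs. The 950 bins formed 187 zones with a median of 4 bins and at most 21, against 88 zones with a median of 7 and at most 55 for the members. SSDDCS was also the noisier library at this time, by the spread between neighbours (5.00%, against 4.22% for sml1). How far noise split the runs was not tested. Of these 187 zones, 135 had an annotated origin within 2 kb, and 117 held no member at all. Conversely, 28 of the 88 zones of the control had none of their bins among the highest of SSDDCS and 8 had all of them. None of these counts has a background value here. The zone that held ARS315 ranked at a mean percentile of 97.4 and that of ARS1332 and ARS1333 at 93.3, whereas the zone of ARS731 ranked at 63.1 and the zone chrII:266001-271000, which had no annotated origin, at 53.7.

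A difference between the strains was also seen at the origins, which were split by the zones chosen on sml1. This split can favour a wider gap in sml1. Origins were not split by zones chosen on SSDDCS, so the part of the choice in this contrast was not tested. For zones chosen on SSDDCS, the excess over the all-bin median at 25 min was 11.6% in sml1 and 8.83% in SSDDCS. For the zones chosen on sml1 it was 17.8% and 7.21%. Of 352 annotated nuclear origins, 88 lay in or within 2 kb of a zone, and 86 of these and 234 of the others had a 5-bin mean in every table. In sml1 at 25 min the origins in zones had a median of 1.882 (10th to 90th percentile 1.822 to 1.967) and the others 1.643 (1.483 to 1.824), a gap of 0.240, and 1 of the 234 others was above the median of the zone origins. In SSDDCS at 25 min the medians were 1.815 (1.711 to 1.910) and 1.775 (1.655 to 1.880), a gap of 0.040, and 72 of the 234 others (30.8%) were above the median of the zone origins. At 15 min the gap was 0.069 in sml1 and 0.028 in SSDDCS. Between the strains, the other origins at 25 min were 1.643 in sml1 and 1.775 in SSDDCS, and the origins in zones 1.882 and 1.815, so that the gap narrowed from both sides. At 45 min the gap was 0.047 in sml1 and -0.0044 in SSDDCS.

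**Figure D3:**
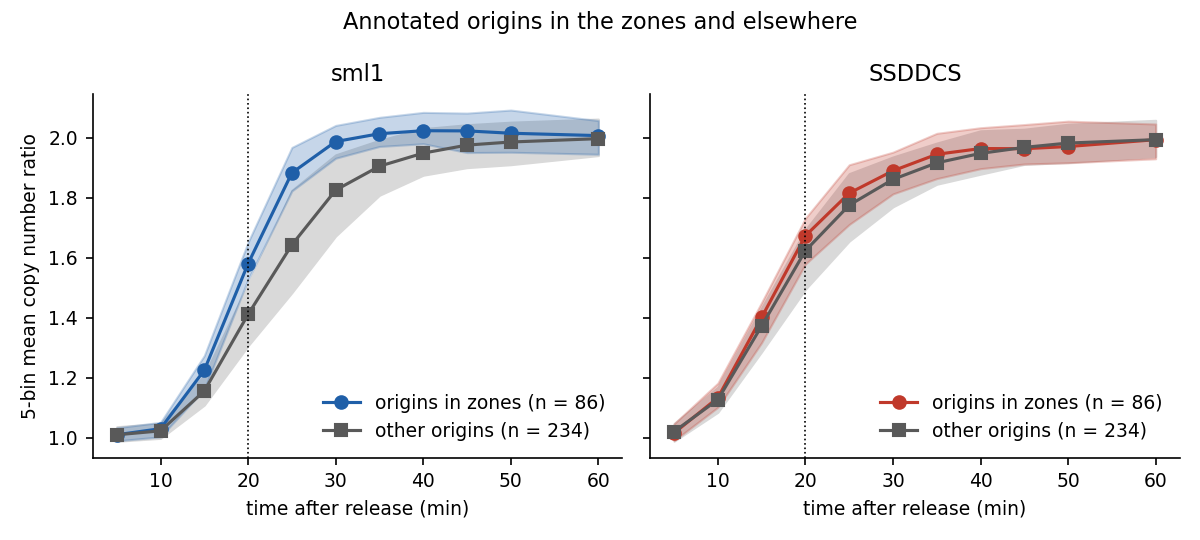
Mean copy number ratio over 5 bins at annotated origins (y axis) against minutes after release (x axis) in sml1 (left) and SSDDCS (right); lines join medians over origins and bands run from the 10th to the 90th percentile, for 86 origins in zones (coloured) and 234 other origins (grey). At 25 min the medians are 1.882 and 1.643 in sml1 and 1.815 and 1.775 in SSDDCS.

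Origins that are often used as models of early firing were all in zones. At 15, 25 and 30 min ARS607 had 5-bin means of 1.257, 1.960 and 2.030 in sml1 and of 1.458, 1.847 and 1.881 in SSDDCS. ARS305 at the same times had 1.240, 1.996 and 2.050 in sml1 and 1.420, 1.856 and 1.898 in SSDDCS. Both were ahead in SSDDCS at 15 min and behind at 25 and 30 min, as were ARS306, ARS307, ARS606 and ARS1. ARS315, in a zone of 6 bins at the right part of chromosome III, differed: it was at 1.246, 1.850 and 1.989 in sml1 and at 1.415, 1.911 and 2.002 in SSDDCS, higher in SSDDCS at each of these times. Origins known as late were higher in SSDDCS at 25 min. ARS603 was at 1.574 in sml1 and 1.812 in SSDDCS at 25 min, ARS609 at 1.425 and 1.692, and ARS522 at 1.644 and 1.775, and none was in a zone.

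To express the course of each bin as 1 time, the ratio at the other 10 time points was fitted with a sigmoid from 1 to 2, and the time at ratio 1.5, Trep, was taken. The 20 min library was left out in both strains. A Trep was kept in both strains for 858 members. The other 93 (9.78%, against 1.38% of all bins) went from a median of 1.19 at 15 min to 2.03 at 25 min in sml1, and their Trep had a standard error over 5 min, in sml1 for 91 of them and in SSDDCS for 2. The Trep values therefore leave these members out, and the ratios above hold all members.

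Among members with a Trep, the median was 18.9 min in sml1 and 18.3 min in SSDDCS, with a median difference of -0.43 min (SSDDCS minus sml1). Over all bins the medians were 23.7 and 21.3 min, with a median difference of -2.36 min. The members were earlier in SSDDCS at 489 of 858 bins (57.0%), against 73.9% of all bins. Differences beyond 5.40 min, the 95% limit set by the noise of the difference between neighbouring bins, were seen in 18 members towards earlier (2.10%, against 21.6% of all bins) and in 22 towards later (2.56%, against 1.89%). The members were spread over a wider range of Trep in SSDDCS, where the 10th and 90th percentiles were 6.19 min apart, than in sml1, where they were 3.62 min apart. The rule held the spread down in sml1, and the noise between neighbouring bins was 1.42 min in sml1 and 2.36 min in SSDDCS.

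Per zone, the median difference was -0.54 min (95% interval -0.95 to -0.22), with 58 of 87 zones earlier in SSDDCS and 29 later. This value depends on the scale of the tables. With the bulk factors of sml1 used in both strains, the median zone was 1.93 min later in SSDDCS, and the median over all bins was 0.15 min earlier. The zones of 10 or more bins had a median difference of -0.22 min (-0.51 to 0.23, 21 of 37 earlier), those of 2 to 9 bins -0.79 min (-1.25 to -0.35, 25 of 35) and those of 1 bin -1.21 min (-3.10 to -0.14, 12 of 15). Short and long zones had intervals that overlapped. The single bin at chrXVI:942001-943000, near ARS1632, stood apart with 22.7 min in sml1 and 14.0 min in SSDDCS.

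**Figure D4:**
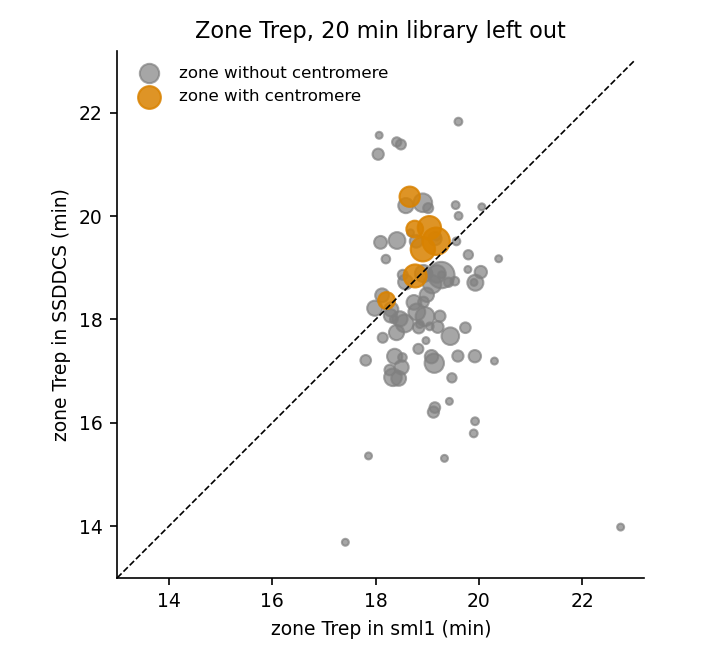
Mean Trep of each of 87 zones in SSDDCS (y axis, min) against that in sml1 (x axis, min), from fits without the 20 min library; point area grows with the number of member bins and the dashed line marks equal times. Zones with a centromere (orange) all lie above the line, and 58 of the 87 zones lie below it.

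Zones with a centromere were not earlier in SSDDCS by the main Trep measure. All 7 were later in SSDDCS in the fit without the 20 min library, with a median of 18.8 min in sml1 and 19.5 min in SSDDCS, while 58 of the 80 other zones with a Trep were earlier. This order was not kept by every fit: with all 11 libraries 5 of the 7 were later, and with a scale fitted per bin 1 of the 7. Their levels, which need no fit, were 1.169 at 15 min and 1.943 at 25 min in sml1, and 1.318 and 1.789 in SSDDCS. Zones without a centromere had medians of 1.213 and 1.882 in sml1 and 1.379 and 1.816 in SSDDCS. Centromere zones were thus lower than the others in both strains at 15 min, higher than the others at 25 min in sml1 and lower at 25 min in SSDDCS. All 7 centromere zones held at least 19 bins, whereas the others included short zones. Of the 37 zones of 10 or more bins, which include these 7, 21 were earlier in SSDDCS by the main Trep. Zone length was not matched in these comparisons.

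Zones that differed most between the strains were named among the 63 with 3 or more bins. The earliest in SSDDCS relative to sml1 were chrXII:509001-516000 at ARS1217 (-2.91 min), the ARS315 zone (-2.85 min), chrIV:405001-414000 at ARS414 (-2.63 min), chrX:96001-100000 at ARS1006 (-2.61 min) and chrVIII:444001-452000 at ARS820 (-2.30 min). Each of these 5 zones had 9 bins or fewer and 1 annotated origin. The latest were the ARS731 zone (3.15 min), chrX:541001-545000 at ARS1018 (3.03 min), chrII:266001-271000 (2.90 min), the zone of ARS208, ARS209 and CEN2 (1.72 min) and chrVII:500001-515000 at ARS720 (1.62 min). In the fit with a free scale for each bin, the ARS731 and ARS720 zones turned to earlier in SSDDCS (-1.76 and -0.27 min). Within these zones single bins differed with SDs of 1.76 to 3.35 min. Over 4 fits, those without the 20 min library, with all libraries, with a scale per bin and with a shared slope, 55 zones were earlier in SSDDCS each time and 4 were later each time. The fit with the bulk factors of sml1 in both strains is not among these 4. In it only 12 of 88 zones were earlier. There the 5 zones named as earliest were at -0.29 to 0.15 min, and the 5 named as latest at 3.83 to 5.45 min.

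The ARS731 zone, chrVII:834001-841000, is shown by its ratios, since the direction of its Trep difference depended on the fit. In sml1 it went from 1.024 at 10 min through 1.255 at 15 min to 1.906 at 25 min, and was 2.039 at 30 min. In SSDDCS it was at 1.148 and 1.356 at 10 and 15 min, but at 1.676 at 25 min, 1.826 at 30 min and 1.913 at 60 min. It was ahead of sml1 at 10 and 15 min and behind it at 25 and 30 min. In SSDDCS it was also lower than the median of all bins at 25 min, 1.692. However, it was below that median at 5 min too (0.998 against 1.020) and at 60 min (1.913 against 1.992). The part of such a level offset in the 25 min value was not tested. The zone of ARS208 and ARS209 followed the same order, with 1.196 at 15 min and 1.929 at 25 min in sml1 and 1.318 and 1.721 in SSDDCS. The zone of ARS606 and ARS607 was at 1.141 and 1.940 in sml1 and at 1.308 and 1.830 in SSDDCS, a smaller difference between the strains at 25 min.

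By Trep, the 5 earliest zones in the control had means of 17.4 to 18.1 min, and zones just behind them were close to this range. The 5 were the single bins at chrII:199001-200000 (ARS231) and chrX:612001-613000 (ARS1019), chrXIV:632001-638000 at ARS1426, chrVII:882001-897000 at ARS737, and the ARS731 zone. None of these was among the 8 zones with the most bins. This order leaves out the 93 members for which no Trep was kept. Without the limit on the standard error, their median Trep in sml1 was 16.6 min. The longest zone, for one, kept a Trep in 39 of its 55 bins, so the order may depend on that limit. Members close to an origin were the first to gain DNA. At 15 min, members within 2 kb of an origin midpoint were at 1.230 in sml1 and 1.396 in SSDDCS, and members over 10 kb away at 1.143 and 1.286. At 25 min the same groups were at 1.910 and 1.921 in sml1 and at 1.823 and 1.816 in SSDDCS. The members near origins were thus higher at 15 min in both strains, and at 25 min the medians were close to each other.

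Around the peaks of the zones, levels fell with distance in both strains. Each peak was the bin with the highest averaged ratio of its zone in sml1 at 20 min, the choosing library. This can favour a higher peak level in sml1. Profiles around peaks chosen on SSDDCS were not made, so the part of this choice in the strain comparison was not tested. At 20 kb from the peak the median ratio in sml1 was 1.101 at 15 min and 1.698 at 25 min, against 1.222 and 1.876 at the peak bin. In SSDDCS it was 1.228 and 1.664, against 1.401 and 1.805 at the peak. At 30 kb the level at 25 min was 1.547 in sml1 and 1.599 in SSDDCS, so that SSDDCS was lower at the peak and higher at this distance. Trep grew by a median of 0.206 min per kb in sml1 (interval over 88 zones 0.190 to 0.230) and 0.262 min per kb in SSDDCS (0.215 to 0.299) over the first 15 kb, and these intervals overlapped. The median Trep at 30 kb was 24.3 min in sml1 and 22.7 min in SSDDCS.

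**Figure D5:**
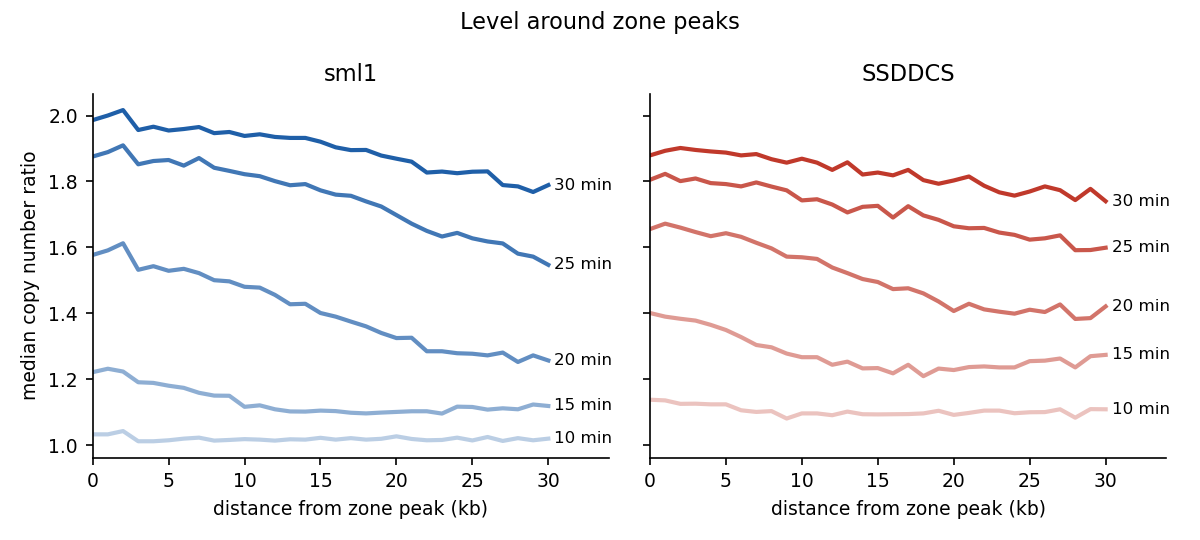
Median copy number ratio over bins (y axis) against distance from the zone peak in kb (x axis), up to the midpoint to the next peak, in sml1 (left) and SSDDCS (right) at 10 to 30 min. At 25 min the level goes from 1.876 at the peak to 1.547 at 30 kb in sml1 and from 1.805 to 1.599 in SSDDCS.

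There were 20 zones that had no annotated origin within 2 kb, and 15 of these held 1 or 2 bins. The other 5 were as early as the rest: their median level at 25 min was 1.904 in sml1 and 1.839 in SSDDCS, against 1.903 and 1.810 for the 58 zones of 3 or more bins with an origin. The largest were chrXV:1044001-1065000 and chrXV:428001-449000, with 21 bins each, and chrXI:298001-309000 with 11. The zone chrXV:1044001-1065000 was at 1.232 at 15 min and 1.927 at 25 min in sml1, and at 1.387 and 1.912 in SSDDCS.

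Zones overlapped 552 of 6002 protein-coding genes (9.20%) and 48 of 275 tRNA genes (17.5%). Of the 8 core histone genes, 6 were in members, namely the pairs HTA1 and HTB1 on chromosome IV, HTA2 and HTB2, and HHT1 and HHF1 on chromosome II, which encode histones H2A and H2B, and H3 and H4. The pair HHT2 and HHF2 was 13.6 and 14.7 kb from the nearest zone. The 5-bin mean at HTA1 was 1.294 at 15 min and 1.909 at 25 min in sml1, and 1.440 and 1.775 in SSDDCS. At HHT1, beside ARS209, it was 1.235 and 1.935 in sml1 and 1.363 and 1.684 in SSDDCS, and at HHT2 1.068 and 1.838 in sml1 and 1.190 and 1.614 in SSDDCS. The histone pairs in zones and the pair outside them were thus higher in SSDDCS at 15 min and lower at 25 min.

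Of the 6 over-expressed factors, the native genes of DBF4, which encodes the activator of the Cdc7 kinase, and SLD7, which encodes a partner of Sld3, were in members and those of the other 4 were not. The bins of DBF4 were at 1.254 at 15 min and 1.911 at 25 min in sml1, and at 1.327 and 1.726 in SSDDCS. The SSDDCS strain also carried DBF4 in its construct at HIS3, and reads of that copy would map to the same bins. The part of that copy in these values was not tested. CLB5, an S-phase cyclin gene, had 1 member among its 3 bins, whereas CLB6 was 127.5 kb from the nearest zone. TRP1, an integration site of the constructs in SSDDCS, adjoins ARS1, the peak of the longest zone and one of the highest of all in the control. TRP1 was at 1.211 at 15 min and 2.037 at 25 min in sml1 and at 1.300 and 1.762 in SSDDCS. The part of the integrated DNA in this difference was not tested. The other 2 sites were outside the zones. LEU2 was at 1.822 in sml1 and 1.552 in SSDDCS at 25 min, and HIS3 was higher in SSDDCS, at 1.359 in sml1 and 1.410 in SSDDCS.

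Late in the time course, members were above 2 copies in the control more often than in SSDDCS. At 40 min the ratio exceeded 2 in 63.2% of members in sml1 and in 39.3% in SSDDCS, and in 28.9% and 26.6% of all bins. As zone means, 70 of 88 were above 2 in sml1 and 24 of 88 in SSDDCS. Each table was scaled to a mean set by bulk DNA content, so that a ratio above 2 is a level relative to the rest of the genome and not a count of copies.

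At the edge of the rule, the 115 bins with a gain of 0.55 to 0.56 and the 137 bins with a gain of 0.54 to 0.55 can be set side by side in the other libraries. Those just inside were at a median of 1.190 at 15 min and 1.879 at 25 min in sml1 and 1.625 at 20 min in SSDDCS, and those just outside at 1.192, 1.886 and 1.620. In SSDDCS at 25 min the medians were 1.801 inside and 1.774 outside, and at 40 min 1.982 and 1.940.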

How the data were processed

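Genomic DNA from the time course was sequenced by the authors with 1 library per strain and time point. Reads were mapped with Bowtie2 2.2.6 to S288C R64-2-1 and counted in 1-kb bins with bedtools 2.26.0. The authors divided each library by the G1 library of the same strain and scaled the result by a bulk factor from flow cytometry; the deposited ratio per bin, between 1 and 2 on average, is the unit used here, and both the ratio and its scaling factor were read from the deposited files. Tables for the G1 samples were not used here, and read depth per library is unknown, so precision was taken from the robust SD between neighbouring bins (3.85% to 5.67% of the mean).

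Members were found from the sml1 table at 20 min, and zones by joining members over gaps of up to 2 bins. The members and gene lists were chosen with earlier results of these data known. Trep was fitted by least squares to 10 libraries per strain (at least 8 present), and kept from 5 to 60 min with a standard error of at most 5 min. The fit was tested on simulated data. Medians over zones have exact order-statistic 95% intervals, and shares have Wilson intervals; these cover the spread of zones or counting error only. Origins, centromeres and genes came from the RefSeq annotation of R64, the same assembly. Zones were named for size (8), earliest Trep (5) and largest differences in each direction (5 each, 3 or more bins), with a fixed list of model origins and genes. Alternatives for threshold, window, fit, scaling and origin distance were run; 2 comparisons with their alternatives were added after seeing the data. Python 3 with numpy, pandas, scipy and matplotlib was used.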

Additional observations from a re-analysis of the deposited data

Results flagged for a closer look

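The level of the zones in SSDDCS minus that in sml1 changed sign during S-phase. The median over zones was 0.160 at 15 min and -0.071 at 25 min, with 87 of 88 zones higher in SSDDCS at the first time and 72 of 88 lower at the second. Over all bins the median difference was 0.140 at 15 min and 0.058 at 25 min, and such levels depend on the bulk factors. Relative to the all-bin median, the zone excess at 15 min was 6.33% in sml1 and 7.78% in SSDDCS, with overlapping intervals. The zone differences were drawn out because the strains differed in opposite directions at the 2 times. The difference between the 2 times was not tested, since there was 1 library per strain and time.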

How the results depend on the processing

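With threshold means of 1.5 and 1.6 the rule kept 1723 and 375 bins, and at 1.6 there were 47 zones. The share of members among the highest bins of SSDDCS at 20 min was then 50.1% and 21.9%, and 28.0% with single bins. The percent of zones with an origin was 62.5 at 0 kb and 88.6 at 5 kb. The median zone Trep difference reversed to 1.93 min with the sml1 bulk factors in both strains, where all bins also moved to -0.15 min. It was -1.05 min with all 11 libraries, -1.73 min with a scale per bin and -1.07 min for members chosen on 15 and 25 min. The causes of these shifts were not tested. With all 11 libraries the member median Trep was 18.97 min in sml1 and 17.96 min in SSDDCS, against 18.93 and 18.25 min without 20 min. The median zone Trep difference was -0.43 min (-0.81 to 0.32) at a threshold of 1.6 and -0.24 min (-0.59 to 0.12) with a window of 3 bins. The gradient in sml1 was 0.177 min per kb with a scale per bin. The excess of zones at 25 min in sml1 was 15.6% and 20.5% at thresholds of 1.5 and 1.6, 18.8% with a window of 9 bins and 11.6% for zones chosen on SSDDCS. In SSDDCS it was 6.18%, 8.36%, 6.26% with a window of 3 bins and 8.83%. In the other 39 alternatives, values stayed within the interval of the main value, or counts and gaps within 1.5 times. No paired analysis was possible because groups consisted of 1 library each. Depth per library is unknown, and noise between bins limits single-bin zones most.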
